A study of Mus musculus with 9 samples.

Results

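Globin and red cell genes were followed in mouse cortex at E16.5 (embryonic day), in samples that differed at HAR1984. They are 10 of the 39184 genes listed in both deposited comparison tables and were chosen by name. They are the embryonic globin genes Hbb-y, Hbb-bh1 and Hba-x, the later globin genes Hbb-bs, Hbb-bt, Hba-a1 and Hba-a2, and the red cell genes Alas2, Bpgm and Slc4a1. The series measured messenger RNA by sequencing, and HAR1984 is a stretch of DNA that evolved fast in humans and that the series title calls a human-specific enhancer. Knock-in cortices carried 1 human and 1 mouse allele (Hs/Mm, made by CRISPR), so a mouse copy of the element was still present. In deletion cortices both copies were removed (del/del, made by CRISPR), and control cortices had the mouse element on both alleles (Mm/Mm). Each genotype had 3 libraries, described as biological replicates, and all 9 share a batch label. The tissue label of deletion replicate 3 reads E16.6. Not given in the sources used here are the number of embryos per library and of founder lines.

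Globins are the protein chains of haemoglobin, and each haemoglobin molecule pairs alpha-like with beta-like chains. In the mouse, the first red cells form in the yolk sac and carry the embryonic chains. Red cells made later by the fetal liver use the adult chains, which dominate in the blood by late gestation, while yolk sac cells are still in circulation. Neurons and progenitors of the cortex are not a main source of globin messenger RNA, whereas blood left in the vessels of dissected brain is. In bulk tissue, fewer cells of a type and less RNA per cell cannot be told apart.

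The globin genes lie in a beta-like cluster on chromosome 7 and an alpha-like cluster on chromosome 11, and the reading of the globin values below depends on how far their sequences differ. Coordinates are those of the GENCODE annotation of GRCm38, and each gene has 3 exons in the transcript used. On the minus strand of chromosome 7 lie Hbb-y (ENSMUSG00000052187, chr7:103851749-103853216), Hbb-bh1 (ENSMUSG00000052217, chr7:103841637-103843164), Hbb-bs (ENSMUSG00000052305, chr7:103826534-103828096) and Hbb-bt (ENSMUSG00000073940, chr7:103812524-103813996). On the plus strand of chromosome 11 lie Hba-x (ENSMUSG00000055609, chr11:32276400-32278116), Hba-a1 (ENSMUSG00000069919, chr11:32283511-32284465) and Hba-a2 (ENSMUSG00000069917, chr11:32296489-32297298). The following 90 bases are coding bases 328 to 417, counted from the start codon, and lie in exon 3 of each beta-like gene. They are shown 5′ to 3′ on the gene's own strand because they hold the single coding base that separates the later pair. Capitals mark the bases that differ from Hbb-bs.
Hbb-y: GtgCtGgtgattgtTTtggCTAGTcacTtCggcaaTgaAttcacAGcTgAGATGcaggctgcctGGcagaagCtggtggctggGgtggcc
Hbb-bh1: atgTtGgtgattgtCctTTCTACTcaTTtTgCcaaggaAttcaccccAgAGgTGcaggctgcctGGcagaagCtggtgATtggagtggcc
Hbb-bs: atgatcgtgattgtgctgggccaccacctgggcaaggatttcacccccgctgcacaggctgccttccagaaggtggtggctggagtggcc
Hbb-bt: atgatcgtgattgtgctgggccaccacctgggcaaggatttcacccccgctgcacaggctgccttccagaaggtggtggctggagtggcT
The stretches lie at chr7:103851901-103851990 for Hbb-y, chr7:103841779-103841868 for Hbb-bh1, chr7:103826692-103826781 for Hbb-bs and chr7:103812683-103812772 for Hbb-bt.

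For the alpha-like genes the 90 bases are coding bases 301 to 390, also in exon 3, and capitals mark the bases that differ from Hba-a1.
Hba-x: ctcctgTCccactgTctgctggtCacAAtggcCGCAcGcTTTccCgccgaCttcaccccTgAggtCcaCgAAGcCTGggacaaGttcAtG
Hba-a1: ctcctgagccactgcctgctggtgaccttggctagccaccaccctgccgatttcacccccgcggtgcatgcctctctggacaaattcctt
Hba-a2: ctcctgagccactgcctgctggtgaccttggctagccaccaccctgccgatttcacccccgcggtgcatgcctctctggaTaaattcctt
These stretches lie at chr11:32277880-32277969 for Hba-x, chr11:32284263-32284352 for Hba-a1 and chr11:32297080-32297169 for Hba-a2.

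Within the stretches shown, Hbb-y differed from Hbb-bs at 26 bases and Hbb-bh1 at 25, while Hbb-bt differed at 1. Hba-x differed from Hba-a1 at 29 bases and Hba-a2 at 1. Over the whole coding sequence, Hbb-bs and Hbb-bt differed at 1 of 444 bases and Hba-a1 and Hba-a2 at 1 of 429. Of all 50-base stretches of the Hbb-bs transcript, 65.8% also occur in Hbb-bt, and 67.5% of those of Hba-a1 occur in Hba-a2. How reads that match both copies were counted is unknown, so the split within each later pair is uncertain. The sum of a pair does not depend on that split, but it depends on whether such reads were counted at all. The embryonic genes shared 0 stretches of this length with a later gene. Hbb-y was 74.3% identical to Hbb-bs in coding sequence and Hba-x was 62.0% identical to Hba-a1, so their values do not depend on such a split.

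Values are given as group levels, in mean normalised counts per library. They follow from the deposited mean over the 9 libraries and the fold changes of both comparisons, with a range of 1 standard error (SE) on either side. Whether ranges of this width overlap is a description and not a test of a difference. Values of single libraries were not analysed here, so whether 1 library carried a group's level was not tested. The mean normalised counts summed to 4.43e+07 over genes, and the depth of single libraries is unknown. Of the list of 12 cortical genes, 11 were in both tables, with means between 554 and 35817, and those of neurons such as Neurod6 were among the highest, beside a label that names neural progenitors. The Y-linked gene Ddx3y stood at 0.994 in knock-in, 729 in deletion and 1891 in control cortices, and the X-inactivation transcript Xist at 51788, 50016 and 18786 in the same order. Ddx3y was lower in the knock-in (Wald test, adjusted p = 0.0442) and did not pass in the deletion (adjusted p = 0.960), and the part of sex-linked differences in the results below was not tested.

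Together the 10 genes held 0.347% of all normalised counts in knock-in, 0.250% in deletion and 0.296% in control cortices. Per kilobase of merged exon the later globins were among the most abundant transcripts of the tissue. Their levels also depend on how reads shared within a later pair were counted, which is unknown. Hba-a1 stood at 57279 mean normalised counts per kilobase, Hbb-bs at 54878, Hbb-bt at 34151 and Hba-a2 at 21541, which placed them 18th, 21st, 34th and 57th of 36926 genes. The next in order were far lower, with Alas2 at 737, Hbb-y at 705 and Bpgm at 591 per kilobase. Hba-x had 219, Slc4a1 40.7 and Hbb-bh1 15.4 per kilobase. The order of neighbours was not fixed: with the longest transcript as the length, Hbb-bs (67112) stood above Hba-a1 (66539), and Bpgm (955) above Alas2 (869) and Hbb-y (705).

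**Figure D1:**
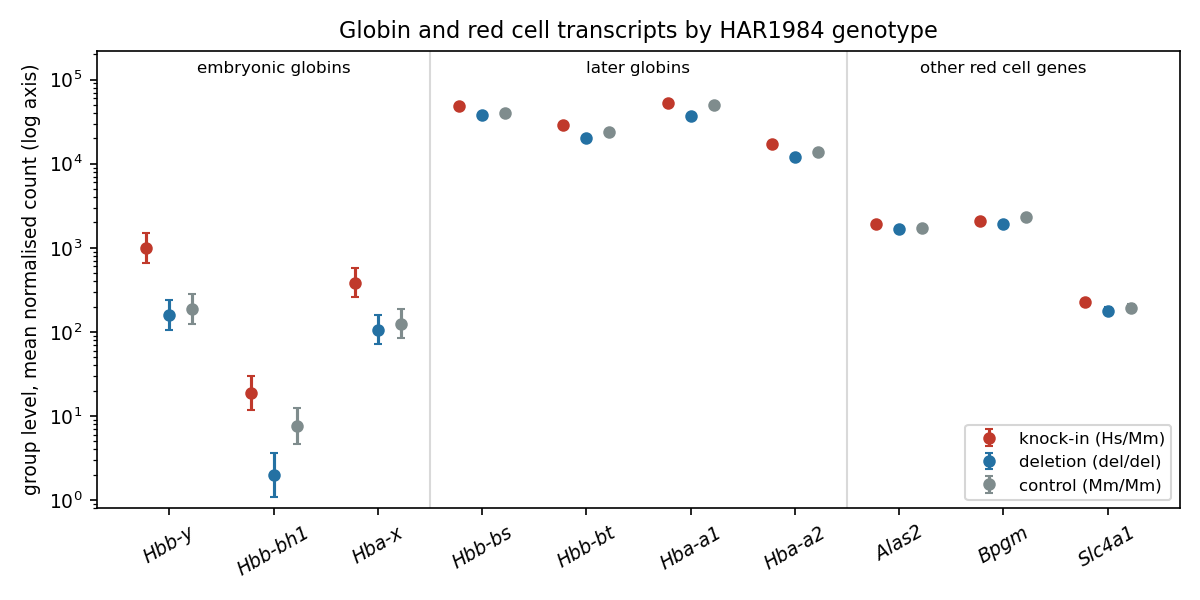
Group levels of the 10 genes in mean normalised counts per library (log axis) in knock-in, deletion and control cortices, 3 libraries each. Points are group levels and bars reach 1 SE on either side. The embryonic globins have bars of wide reach with the knock-in highest, such as Hbb-y at 993 in knock-in, 158 in deletion and 187 in control cortices, and the bars of the later globins are about as small as the points.

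The embryonic beta-like gene Hbb-y had the largest fold change of the 10 in the comparison of knock-in with control. Its level was 993 in knock-in cortices (range of 1 SE 662 to 1490), 158 in deletion cortices (105 to 238) and 187 in control cortices (124 to 281). The knock-in range lay above the others, and the ranges of deletion and control overlapped. Knock-in over control was 5.31-fold, a log2 fold change of 2.41 (SE 0.83, 95% interval 0.78 to 4.04), the highest of all 21222 genes tested in that comparison. It did not pass an adjusted p of 0.05 (Wald test, Benjamini-Hochberg adjusted p = 0.335, unadjusted p = 0.00368). In deletion over control the log2 fold change was -0.24 (SE 0.83, adjusted p = 0.988).

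Hba-x, the embryonic alpha-like chain, had the same order of groups. Its level was 386 in knock-in (261 to 569), 106 in deletion (71.8 to 157) and 125 in control cortices (84.6 to 185). Knock-in over control was 3.08-fold, a log2 fold change of 1.62 (SE 0.80, 95% interval 0.06 to 3.19), 6th highest among the genes tested, with an adjusted p of 0.691 (Wald test). In deletion over control it was -0.23 (SE 0.80, adjusted p = 0.988). Neither embryonic chain passed the threshold in either comparison.

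Hbb-bh1, the beta-like chain that is used earliest in yolk sac red cells, was near the limit of detection. Its level was 18.6 in knock-in (11.7 to 29.7), 2.01 in deletion (1.10 to 3.68) and 7.66 in control cortices (4.68 to 12.6). It had no adjusted p in either table. The log2 fold change was 1.28 in knock-in over control (SE 0.98, Wald test, unadjusted p = 0.191) and -1.93 in deletion over control (SE 1.13, unadjusted p = 0.0865), and both 95% intervals included 0.

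The 3 embryonic genes shared a wide fitted spread between libraries. It was solved from the SEs, mean levels and fold changes that the rule for these genes also uses, so it is no separate evidence. The deposited SE implies a coefficient of variation (CV) between libraries of 1 genotype, beyond counting error, with 1 value per gene for all genotypes. This fitted CV was 70.2% for Hbb-y, 67.3% for Hba-x and 77.4% for Hbb-bh1. The median of genes within 1.5-fold of the same mean level was 11.4% for Hbb-y, 14.5% for Hba-x and 44.2% for Hbb-bh1. Hbb-y thus varied more than 99.0% of 2402 genes of like level, Hba-x more than 97.4% of 1986 and Hbb-bh1 more than 97.3% of 2685. The SE of Hbb-y, from which its CV was solved, was 0.83 beside a median SE of 0.16 over all genes tested in the knock-in comparison. From which genotype or library the spread came was not tested.

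**Figure D2:**
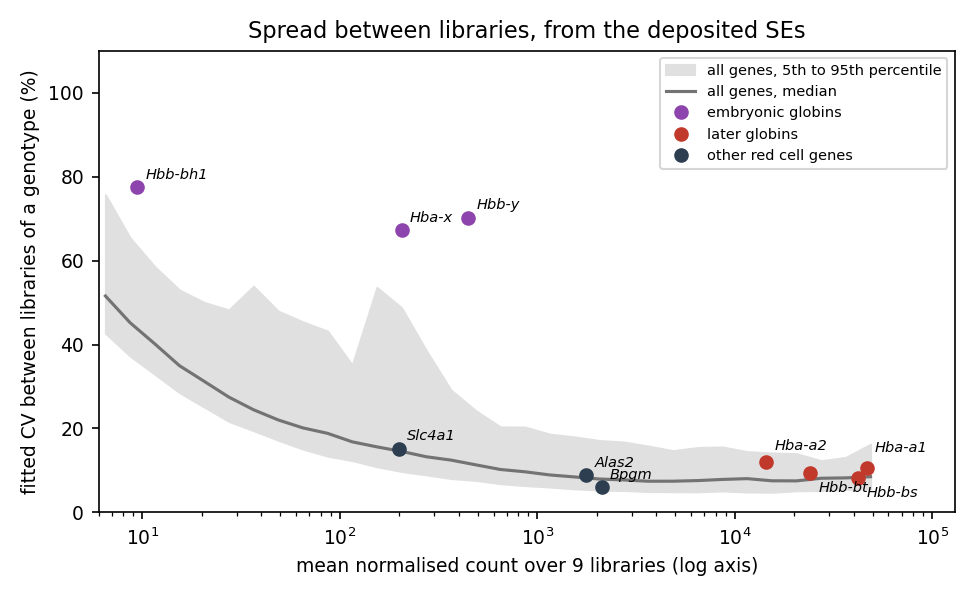
Fitted CV between libraries of a genotype (%, linear axis) against the mean normalised count over 9 libraries (log axis). The line and band give the median and the 5th to 95th percentile of all genes at each level, and points are the 10 genes. Hbb-y (70.2%), Hba-x (67.3%) and Hbb-bh1 (77.4%) lie above the band, and the other 7 genes lie within it, between 6.10% and 15.2%.

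The later globins varied little between libraries, with fitted CVs of 9.30% for Hbb-bt, 8.15% for Hbb-bs, 10.5% for Hba-a1 and 11.96% for Hba-a2. All 4 were above control in the knock-in and below control in the deletion, by small amounts. Hbb-bs, the more abundant adult beta chain, stood at 49012 in knock-in (46756 to 51378), 37500 in deletion (35773 to 39311) and 39926 in control cortices (38087 to 41854). The knock-in range lay above those of deletion and control, which overlapped. Its log2 fold change was 0.30 in knock-in over control (SE 0.10, Wald test, adjusted p = 0.270) and -0.09 in deletion over control (SE 0.10, adjusted p = 0.881).

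Hbb-bt, the other adult beta chain, stood at 28479.5 in knock-in cortices (26988 to 30054), 19996 in deletion (18948 to 21103) and 23549 in control cortices (22315 to 24851). The 3 ranges did not overlap, with control between the others. On the log2 scale this was 0.27 in knock-in over control (SE 0.11, Wald test, adjusted p = 0.499) and -0.24 in deletion over control (SE 0.11, adjusted p = 0.438).

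Hba-a1, the more abundant adult alpha chain by these counts, stood at 52847 in knock-in (49742 to 56145), 37096 in deletion (34917 to 39412) and 49588 in control cortices (46675 to 52683). Here the deletion range was the one that lay apart, and knock-in and control overlapped. Its log2 fold change was 0.09 in knock-in over control (SE 0.12, Wald test, adjusted p = 0.921) and -0.42 in deletion over control (SE 0.12, adjusted p = 0.0612). Hba-a2, the other adult alpha chain, stood at 17337 in knock-in (16178 to 18578), 11869 in deletion (11075 to 12719) and 13899 in control cortices (12969 to 14895), with no overlap of the ranges. Its log2 fold change was 0.32 in knock-in over control (SE 0.14, Wald test, adjusted p = 0.605). In deletion over control it was -0.23 (SE 0.14, Wald test, adjusted p = 0.672, unadjusted p = 0.107), although those ranges did not overlap.

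Since the copies of a later pair share most of their sequence, sums were taken, which do not depend on how shared reads were split. Whether shared reads were counted at all is unknown, and the sums depend on it. The adult beta sum was 77492 in knock-in, 57497 in deletion and 63475 in control cortices, a log2 ratio of 0.29 for knock-in over control and -0.14 for deletion over control. The adult alpha sum was 70183 in knock-in, 48965 in deletion and 63487 in control cortices, with log2 ratios of 0.14 and -0.37. The ratio of adult alpha to adult beta counts was 0.906 in knock-in, 0.852 in deletion and 1.0002 in control cortices. Within the pairs, the share of Hba-a1 in the alpha sum was 75.3% in knock-in, 75.8% in deletion and 78.1% in control, and that of Hbb-bs in the beta sum was 63.2%, 65.2% and 62.9% in the same order. These sums and ratios have no test, since they combine fitted values of genes measured in the same libraries.

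Alas2, the X-linked gene of the first enzyme of haem synthesis in red cells (ENSMUSG00000025270, chrX:150547375-150570638, plus strand), did not pass in either genotype. Its level was 1904 in knock-in (1806 to 2008), 1688 in deletion (1600 to 1780) and 1719 in control cortices (1630 to 1813). The log2 fold change was 0.15 in knock-in over control (SE 0.11, 95% interval -0.06 to 0.36, Wald test, adjusted p = 0.828) and -0.03 in deletion over control (SE 0.11, 95% interval -0.24 to 0.19, adjusted p = 0.989). Slc4a1 encodes band 3, the anion exchanger of the red cell membrane (ENSMUSG00000006574, chr11:102348824-102366203, minus strand). It stood at 225 in knock-in (205 to 248), 178 in deletion (162 to 197) and 194 in control cortices (176 to 214), and the ranges of neighbouring groups overlapped. Its log2 fold change was 0.22 in knock-in over control (SE 0.20, adjusted p = 0.849) and -0.12 in deletion over control (SE 0.20, adjusted p = 0.950).

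Bpgm was the single one of the 10 genes that passed the threshold against control. It encodes the mutase that makes 2,3-bisphosphoglycerate, the small molecule that lowers the oxygen affinity of haemoglobin (ENSMUSG00000038871, chr6:34476207-34505613, plus strand). Its level was 2083 in knock-in (2007 to 2163), 1936 in deletion (1864 to 2010) and 2339 in control cortices (2253 to 2427), so control was highest and its range lay apart from the others. Bpgm fell by 0.27 on the log2 scale in deletion over control (SE 0.08, Wald test, adjusted p = 0.0420), and did not pass when adjusted over every gene with a statistic (adjusted p = 0.0853). In knock-in over control its log2 fold change was -0.17 (SE 0.08, adjusted p = 0.623). It had the smallest fitted CV of the 10 genes, 6.10%, which was lower than that of most genes of like level.

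Counted over the set, 0 of the 9 genes with an adjusted p passed 0.05 in knock-in over control by the Wald test, where 29 of 21222 genes tested (0.137%) did. In that comparison 6 of the 10 had an unadjusted p under 0.05, beside 1468 of all 21222 tested (6.92%). In deletion over control 1 of 9 passed, beside 185 of 18952 (0.976%), or 90 of them in the lower direction (0.475%), and 3 of the 10 had an unadjusted p under 0.05, beside 1800 of all 18952 tested (9.5%). In knock-in over control 9 of the 10 genes were above 0 and Bpgm was below, with a median log2 fold change of 0.29 beside 0.00 over all genes tested. In deletion over control all 10 were below 0, with a median of -0.24 beside -0.01. These counts by direction are descriptive, since the genes were measured in the same libraries and are not independent.

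**Figure D3:**
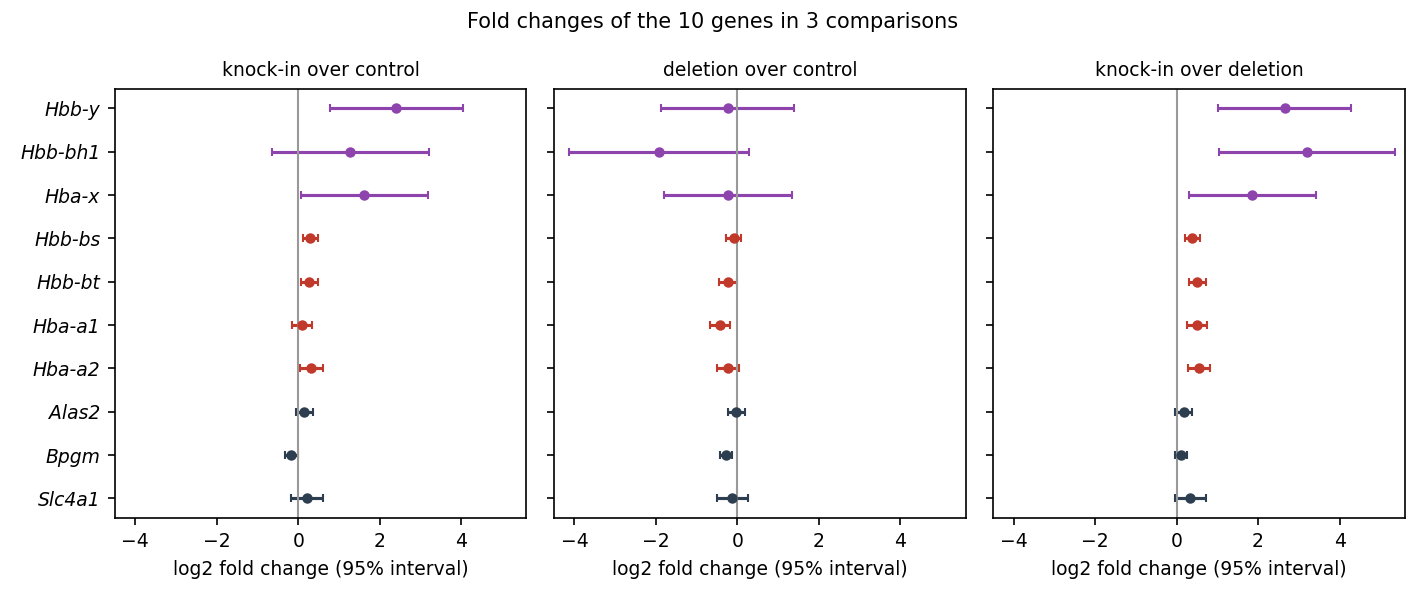
Log2 fold changes of the 10 genes in knock-in over control, deletion over control and knock-in over deletion, with points for estimates and bars for 95% intervals (in the third panel with the variance of the control libraries taken out). Embryonic globins are purple, later globins red and the other genes dark. In the third panel all 10 estimates are above 0, between 0.11 for Bpgm and 3.21 for Hbb-bh1.

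The authors' deposited table for the knock-in gives smaller p-values for 4 of the 10 genes. The deposited p of Hbb-y, Hbb-bs, Hbb-bt and Hba-a2 is 1000 times below the p that follows from the statistic in the same row, while those of the other 6 genes equal it. The authors' deposited table therefore lists an adjusted p of 3.19e-04 for Hbb-y, 2.57e-04 for Hbb-bs, 4.81e-04 for Hbb-bt and 5.86e-04 for Hba-a2. The same factor was found for 923 genes in that table, and the deposited adjusted p is under 0.05 for 930 genes, against 29 from the statistics. Hbb-y ranks first by fold change among the 65 genes of the authors' shorter knock-in list. In the deletion table no p of the 10 genes departed from its statistic.

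The rule that defined the genes also asks for the difference between the comparisons, which is knock-in over deletion, since the control level cancels. With the squared SEs of both comparisons summed, none of the 9 genes with an adjusted p passed 0.05 (Wald test, adjusted p = 0.99978 for each), beside 1 of 18928 genes tested (0.00528%). That SE counts the control libraries in both terms and is too wide. With their variance taken out, 7 of 18928 genes passed (0.037%), 2 of them higher in the knock-in (0.0106%), and 1 of these 2 was a globin gene. It was Hbb-bt, at 28479.5 in knock-in and 19996 in deletion cortices, 1.42-fold or a log2 fold change of 0.51 (SE 0.11, 95% interval 0.29 to 0.73, adjusted p = 0.0208).

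The other adult globins had similar log2 fold changes of knock-in over deletion and stood just outside the threshold. With the control variance taken out, Hba-a1 had 0.51 (SE 0.12, Wald test, adjusted p = 0.0594), Hbb-bs 0.39 (SE 0.10, adjusted p = 0.0624) and Hba-a2 0.55 (SE 0.14, adjusted p = 0.0697). By unadjusted p Hbb-bt ranked 3, Hba-a1 10, Hbb-bs 18 and Hba-a2 29 of 18928. The summed adult globins were 147675 in knock-in and 106462 in deletion cortices, a log2 ratio of 0.47, with 126962 in control. Control thus stood between the other genotypes in total adult globin.

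For the embryonic genes the difference between knock-in and deletion was larger and less certain. The log2 fold change was 2.65 for Hbb-y (SE 0.83, 95% interval 1.02 to 4.28, Wald test, adjusted p = 0.181), 1.86 for Hba-x (SE 0.80, 0.29 to 3.42, adjusted p = 0.397) and 3.21 for Hbb-bh1 (SE 1.10, 1.05 to 5.37, unadjusted p = 0.00358). Alas2 (0.17, SE 0.11, adjusted p = 0.581), Slc4a1 (0.34, SE 0.20, adjusted p = 0.551) and Bpgm (0.11, SE 0.08, adjusted p = 0.653) did not pass, and their 95% intervals included 0.

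The embryonic share of globin counts was compared as a clue to stage, since it declines as fetal liver cells replace yolk sac cells. Of beta-like counts, Hbb-y and Hbb-bh1 held 1.29% in knock-in, 0.278% in deletion and 0.305% in control cortices. Of alpha-like counts, Hba-x held 0.546% in knock-in, 0.217% in deletion and 0.197% in control cortices. Adult chains thus made up nearly all globin messenger RNA in every genotype. The size of the embryonic shares depends on whether reads shared within a later pair were counted, which is unknown. Per kilobase of merged exon the embryonic shares were 1.51%, 0.327% and 0.359% for the beta-like and 0.449%, 0.178% and 0.163% for the alpha-like genes, in the order knock-in, deletion and control.

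**Figure D4:**
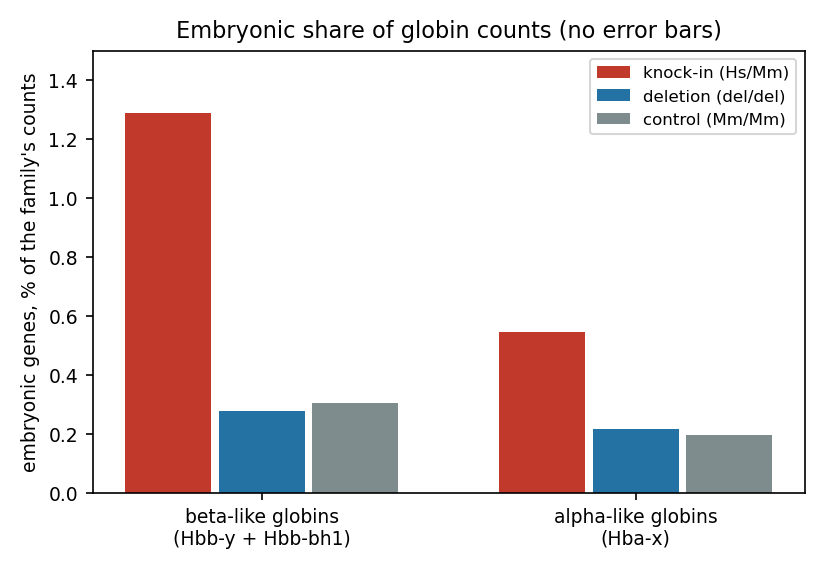
Share of embryonic genes in the counts of each globin family (%, linear axis from 0) in knock-in, deletion and control cortices, from group levels and without error bars. The knock-in bar is highest in both families, at 1.29% of beta-like and 0.546% of alpha-like counts, and the deletion and control bars are between 0.197% and 0.305%.

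The summed embryonic level was 1397 in knock-in, 267 in deletion and 320 in control cortices, a log2 ratio of 2.13 for knock-in over control and -0.26 for deletion over control. The median log2 fold change of the embryonic minus that of the later globins was 1.34 in knock-in over control and -0.01 in deletion over control. Without Hbb-bh1, the gene of lowest level, these differences were 1.73 and -0.01. Without Hbb-bt and Hba-a2, the less abundant copy of each later pair, they were 1.43 and 0.02. The difference in the deletion is thus near 0 and has no fixed sign. They have no test, and the embryonic terms carry the SEs of 0.80 to 1.13 given above.

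The gene whose pattern over the genotypes was nearest to that of Hbb-y was Hba-x. Among 13281 named genes with a mean of at least 50, the distance to Hbb-y in the plane of both log2 fold changes against control was 0.79 for Hba-x. The next were Neurog1 at 1.75, Agtr2 at 1.77, AC140426.1 at 1.78 and Hgf at 1.78. Neurog1, a proneural transcription factor gene, had 0.66 in knock-in over control (SE 0.42, Wald test, adjusted p = 0.797) and -0.25 in deletion over control (SE 0.42, adjusted p = 0.952). This nearness rests on 3 group levels and on comparisons that share their control libraries. It uses the fold changes already given above, so it is no separate evidence.

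The wider red cell programme was read from lists of genes by role, with the control variance taken out of the SE in knock-in over deletion. Counts at an unadjusted p under 0.05 in these lists stand beside 6.92% of all genes tested in knock-in over control, 9.5% in deletion over control and 10.2% in knock-in over deletion. Of 12 genes of haem synthesis all were tested and 0 passed in any of the 3 comparisons, with medians of 0.04 in knock-in over control, 0.02 in deletion over control and 0.03 in knock-in over deletion. At an unadjusted p under 0.05 there were 2 in the knock-in, 1 in the deletion and 0 between them, of 12 each, so the deletion count is near the share over all genes. Besides Alas2 most of these steps are used by all cells. The smallest unadjusted p against control was that of Tmem14c, a mitochondrial porphyrin carrier (0.25 in knock-in, Wald test, unadjusted p = 0.0337, and 0.27 in deletion, unadjusted p = 0.0227). Of the 12 genes of iron and haem handling 0 passed by the Wald test, and 0 had an unadjusted p under 0.05 in any comparison, with medians of 0.03, 0.00 and -0.01 in the same order. Steap3, the ferrireductase of the transferrin cycle, had 0.43 in deletion over control (SE 0.26, adjusted p = 0.634).

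Of the red cell membrane and skeleton genes 18 were tested in the knock-in and 14 in each of the others, and 0 passed by the Wald test. Dmtn, which bundles actin in the red cell skeleton and is also made by neurons, was the 1 gene with an unadjusted p under 0.05 in knock-in over control (-0.48, SE 0.21, adjusted p = 0.614). The medians were 0.01 in knock-in over control, -0.03 in deletion over control and -0.01 in knock-in over deletion. Aqp1, a water channel of red cells that the choroid plexus also makes, had a fitted CV of 96.2%, and the choroid plexus gene Ttr had 127%. Genes known from red cell precursors and their membrane were at low levels, and the following were chosen for mention after their values were seen. Rhag stood at 4.70, 4.45 and 5.54, Epb42 at 15.6, 14.5 and 14.0, and the transcription factor genes Gata1 at 5.83, 3.76 and 4.07 and Klf1 at 24.2, 19.97 and 16.8, each in the order knock-in, deletion and control.

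Among red cell enzymes, Bpgm was the 1 gene of 9 that passed in deletion over control, beside 0.976% of all genes tested. In the knock-in 0 of 10 passed, beside 0.137%. At an unadjusted p under 0.05 (Wald test) there were 2 of 10 in the knock-in and 2 of 9 in the deletion. Between them there was 1 of 9. Gpx1, the glutathione peroxidase that removes peroxide, stood at 416 in knock-in, 370 in deletion and 288 in control cortices. Its log2 fold change was 0.53 in knock-in over control (SE 0.13, Wald test, adjusted p = 0.0516) and 0.36 in deletion over control (SE 0.13, adjusted p = 0.232). Of 7 tested genes of erythroid maturation 0 passed by the Wald test, and at an unadjusted p under 0.05 there were 0 against control and 2 in knock-in over deletion, where the share over all genes was 10.2%. Of these, Trim10, a gene of terminal red cell differentiation, stood at 61.9 in knock-in and 29.8 in deletion cortices, with 47.5 in control. Its log2 fold change of knock-in over deletion was 1.06 (SE 0.36, adjusted p = 0.243 with the control variance taken out). The other gene, Cited2, went the opposite way, at -0.18 (SE 0.07, Wald test, adjusted p = 0.378).

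Of the erythroid transcription factors and the erythropoietin receptor, 10 were tested in the knock-in and 8 in each of the others, and 0 passed. Tal1, the 1 gene with an unadjusted p under 0.05 in each comparison with control and also made by endothelium, had 0.53 in knock-in over control (SE 0.21, Wald test, adjusted p = 0.518) and 0.54 in deletion over control (SE 0.21, adjusted p = 0.285). Genes that regulate the switch from embryonic to later globins gave 0 of 10 in the knock-in and 0 of 9 in each of the others by the Wald test, with 1 in each at an unadjusted p under 0.05. Lin28b, an RNA-binding factor of fetal programmes, was below control in both, at -0.68 in the knock-in (SE 0.23, adjusted p = 0.322) and -0.64 in the deletion (SE 0.23, adjusted p = 0.207). Bcl11a, Sox6 and Chd4 in that list are also genes of cortical neurons and progenitors, so their levels here are not levels in red cells. From which cells the Lin28b transcripts came was not tested.

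**Figure D5:**
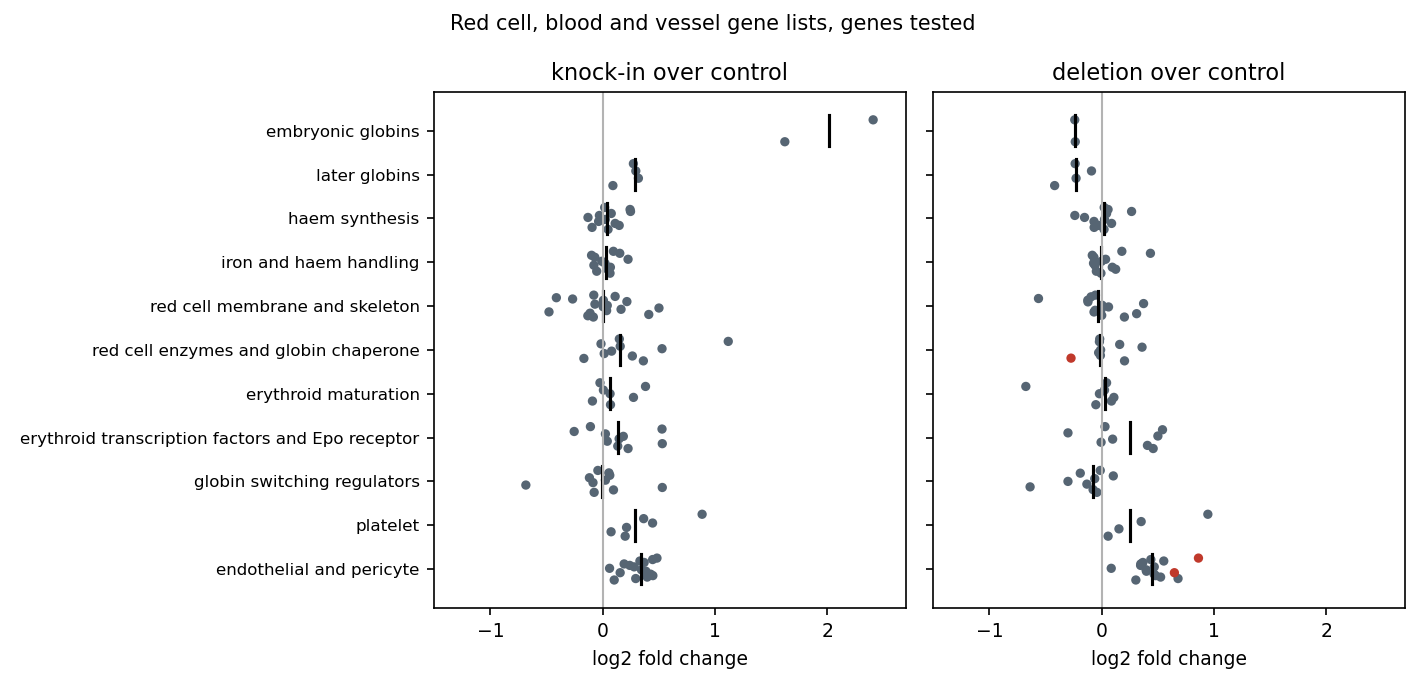
Log2 fold changes of the tested genes of 11 lists in knock-in over control and deletion over control. Each point is a gene, black bars are list medians, and red points passed an adjusted p of 0.05. The red points are Bpgm among red cell enzymes and Flt1 and Vtn among endothelial and pericyte genes, all in the deletion. The 16 endothelial and pericyte genes lie above 0 in both panels, which share their control libraries.

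Other components of blood and vessel were read beside the globins. Each of the 16 genes of endothelium and pericytes lay above control in both genotypes, with medians of 0.34 in the knock-in and 0.45 in the deletion. Of all genes tested, 51.0% and 48.3% lay above 0. Both comparisons share the control libraries and the 16 genes are not independent, so the second is no separate evidence. In knock-in over deletion 2 of the 16 were above 0 and 14 below. Their summed level was 27850 in knock-in, 31264 in deletion and 22724 in control cortices. Of the 16 genes, 2 passed in deletion over control, and 0 passed in knock-in over control or knock-in over deletion. The 2 were the VEGF receptor gene Flt1 (0.65, SE 0.15, Wald test, adjusted p = 0.00512) and the pericyte-expressed Vtn (0.86, SE 0.25, adjusted p = 0.0473). Over all genes tested 0.976% passed in the deletion, 0.137% in the knock-in and 0.037% between them. At an unadjusted p under 0.05 there were 5 of 16 in the knock-in, 13 in the deletion and 1 between them, beside 6.92%, 9.5% and 10.2% of all genes tested, so the count of knock-in over deletion is no higher than that of all genes. In the deletion, globins and vessel genes thus lay on opposite sides of control, and in the knock-in on the same side. Their part in the globin values was not tested.

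Platelet genes summed to 603 in knock-in, 735 in deletion and 469 in control cortices, and 0 of 6 passed in the knock-in and 0 of 4 in each of the others. The 1 gene with an unadjusted p under 0.05 in any of these was Pf4. This chemokine of platelet granules, which brain macrophages also make, had 0.95 in deletion over control (SE 0.28, Wald test, adjusted p = 0.0615). Pf4 alone stood at 299 in knock-in, 423 in deletion and 219 in control cortices, a large part of the platelet sums. Leukocyte genes summed to 269 in knock-in, 303 in deletion and 298 in control cortices, with 0 passing by the Wald test of 5 tested in the knock-in and 2 in each of the others, and 0 at an unadjusted p under 0.05. Of plasma protein genes of liver and yolk sac, 0 passed by the Wald test, of 4 tested in the knock-in and 3 in each of the others, and Rbp4 had an unadjusted p under 0.05 in deletion over control and in knock-in over deletion. The liver and yolk sac genes Alb and Afp were near 0, at 0.716 and 1.64 in knock-in, 1.03 and 1.33 in deletion and 0.954 and 1.28 in control cortices. Of the 11 cortical genes 0 passed by the Wald test in any of the 3 comparisons, with 1 in the knock-in, 3 in the deletion and 4 between them at an unadjusted p under 0.05, beside 6.92%, 9.5% and 10.2% of all genes tested. All 11 were above 0 in knock-in over control, with a median of 0.17, and 5 were above 0 in deletion over control, with a median of -0.08. Of the 4 sex-linked genes Eif2s3y and Ddx3y passed as lower in knock-in over control, where 0.137% of all genes tested passed in either direction.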

How the data were processed

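Messenger RNA of 9 cortex samples was sequenced, and the tools listed in the submitters' processing notes are STAR 2.7.9a, Bowtie2 2.4.4 and cutadapt, beside the genome builds mm9 and mm10, without roles. Not given in the sources used here: how reads were counted, with which annotation and whether by strand. The authors deposited, per the file headers and notes, log2 fold changes and their SEs, a Wald score per gene from DESeq2, p-values raw and adjusted, and baseMean, a signal that is the mean normalised count over all libraries. Deposited columns headed FPKM with names of libraries were not used: all 235530 deletion values and all 242196 knock-in values equalled baseMean times a seeded normal draw (mean 1, SD 0.1, seed 42) within 1e-09.

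Computed here were the log2 fold change as score times SE, its 2-sided normal p and Benjamini-Hochberg adjustment over the genes with a deposited adjusted p (18952 in deletion, 21222 in knock-in), with a threshold of 0.05. This departs from the authors' p-values because these did not follow from the scores for 923 knock-in genes and 4 deletion genes. Group levels follow from baseMean and both fold changes. The dispersion solved from each table agreed within 1% for 16814 of 16815 genes with a baseMean of at least 50, and by 0.582% or less for the 10 genes, so both tables stem from 1 fit of 9 libraries. SEs of levels and the knock-in over deletion SE without control variance use that dispersion. The genes tested are bulk averages of 3 libraries a group, and the median SE was 0.161 in the knock-in and 0.143 in the deletion. The genes and the 15 lists were chosen with earlier results of these data known. Named are the 10 genes, list members past 0.05, some of those among the 2 smallest p-values of a list and comparison, and the 5 genes nearest to Hbb-y. Outside this rule, Aqp1, Bcl11a, Alb, Afp and the genes known from red cell precursors were named after their values were seen. Of the listed genes Icam4, Ahsp, Ltf, Serpina1a, Bcl11b and Uty were not in both tables used here. The steps for levels, dispersions and calls were tested on data simulated with the same formulas. That checks the computation, not whether the formulas hold for these libraries. Positions and coding sequences came from GENCODE of GRCm38. The tools were R 4.3.3 and Python 3.11.15 (scipy 1.17.1, pandas 2.3.3, numpy 2.4.6, matplotlib 3.10.9).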

Additional observations from a re-analysis of the deposited data

How the results depend on the processing

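No paired analysis was possible because no column holds a measurement of a single library. For the same reason leaving out each replicate in turn was not run, and the depth and the weight of single libraries are unknown. Depth limits Hbb-bh1 most, at 2.01 normalised counts in the deletion. Under other settings 80 values stayed within the replicate spread or on their side of the threshold and 13 moved. Part of the 80 could not have moved, so their number does not measure stability. The authors' log2 fold changes equal score times SE for all 10 genes. Subtracting the median of all genes cancels in the embryonic minus later difference. For Hbb-y, Hbb-bh1 and Hbb-bt the longest transcript is as long as the merged exons. The 1 change of sign was that of the difference between embryonic and later globins in deletion over control, at -0.01 as reported and 0.02 without Hbb-bt and Hba-a2, a setting that gave 1.43 in knock-in over control. In deletion over control the count of the 10 genes past the threshold was 1 and became 0 when adjusted over every gene with a statistic, 2 at an adjusted p of 0.1 and 0 at 0.01, and it stayed at 1 with a mean of at least 50. In knock-in over control the count of 0 became 4 with the authors' deposited adjusted p. In knock-in over deletion the count of 0 became 1 with the control variance taken out of the SE. Settings added after the data were seen combined this SE with a mean of at least 50 (1 gene), adjustment over every gene (1 gene), an adjusted p of 0.1 (4 genes) or 0.01 (0 genes). Without Hbb-bh1, also added, embryonic minus later globins was 1.73 in knock-in over control and -0.01 in deletion over control. With the longest transcript in place of merged exons, the levels per kilobase of Hbb-bs, Hba-a1, Hba-a2, Alas2 and Bpgm moved, and that of Bpgm was 955 in place of 591.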
